A study of Sus scrofa with 8 samples.

Results

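The transcripts of glycolytic enzymes were followed in the livers of 4 Korean native pigs (KNP), an indigenous Korean breed, and 4 Yorkshire pigs (YS), a commercial breed. The genes were GAPDH, GPI, TPI1, PGK1, PGAM1, ENO1, LDHA and PKLR, and every probe set that the array annotation assigns to exactly 1 of these symbols was taken, with the array's control probe sets left out. Of the 8 genes, 6 had at least 1 such probe set, out of 6765 genes with a single symbol on the array. GAPDH had 5 probe sets, and GPI, TPI1, PGK1, ENO1 and LDHA had 1 each, which makes 10 in all. PGAM1 and PKLR were not analysed here. Total RNA of each liver, sampled at the tip of its largest lobe, was hybridized to an Affymetrix porcine array of its own. KNP pigs were sampled at 7 months of age and YS pigs at 6 months, so breed and age cannot be told apart. According to the labels both breeds were raised under the same conditions, and no treatment is named for either.

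Glycolysis splits glucose into pyruvate in the cytosol and yields ATP and NADH. Most of its steps run in either direction, so that the liver uses the same enzymes to build glucose from lactate, amino acids and glycerol when the animal fasts. GAPDH and other enzymes of the pathway are made in nearly all cells, which is why GAPDH is widely used as a reference gene against which other transcripts are scaled.

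Values are the deposited intensities, on a linear scale that the authors had set per array. Tests were made on log2(intensity + 16), and differences are KNP minus YS on that log2 scale with their standard error (SE). The threshold was an adjusted p under 0.05 from limma with Benjamini-Hochberg adjustment over 14399 probe sets, those left after the dimmest 40% had been dropped. Of the 10 glycolytic probe sets 9 passed this filter, and 1 dim GAPDH probe set did not.

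The array medians ran from 153 to 170 in KNP and from 154 to 180 in YS. The brightest value of an array lay between 50730 and 60066 in KNP and between 83646 and 95919 in YS. The spiked hybridization controls also did not overlap between the breeds, with a geometric mean of 3286 to 4833 on KNP arrays and 6499 to 8785 on YS arrays. The actin controls gave a ratio of the 3' end over the 5' end of 2.68 to 6.45 in KNP and 8.39 to 11.8 in YS. This ratio cannot tell RNA quality apart from how far labelling reached along a transcript. Of 13 hepatocyte markers 12 were measured, and their summed intensity was 322379 to 410692 in KNP and 539333 to 566926 in YS. Of the 12, 6 were called lower in KNP, where limma called 0.611% of all probe sets lower. Among the 68 brightest probe sets, with a mean log2 between 15 and 17, it called 54.4% lower, and the markers were not matched for brightness. Skeletal muscle markers, which would show tissue rich in glycolytic enzymes, summed to 88.6 to 204 in KNP and 169 to 303 in YS over 4 markers, none of which passed the filter. The part of these differences between arrays in the results for glycolytic enzymes was not tested.

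GAPDH, which oxidizes glyceraldehyde 3-phosphate and makes NADH, fell in KNP with its brightest probe set, and this was the only glycolytic probe set past the threshold. PGK1, GPI and LDHA had lower means in KNP without passing, and ENO1 and TPI1, whose breeds overlapped widely, did not pass either. Of the 9 probe sets tested, 0 rose, 1 fell and 8 did not pass, where limma called 1.03% of all 14399 probe sets in either direction and 0.611% lower in KNP. At an unadjusted p under 0.05, 5 of the 9 were lower in KNP and 0 higher, against 15.1% of all probe sets in either direction and 8.06% lower. The 4 KNP values lay below all 4 YS values in 4 of the 9 and above them in 0. Over all probe sets the breeds did not overlap in 9.68%, with KNP lower in 5.67% and higher in 4.01%.

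Taken by the brightest probe set of each gene, 1 of the 6 genes fell and 5 did not pass, where limma called 1.36% of 5423 genes, 0.867% lower and 0.498% higher in KNP. At an unadjusted p under 0.05, 4 of the 6 were lower and 0 higher, against 8.89% of genes lower. KNP lay below YS without overlap in 3 of the 6, GAPDH, GPI and PGK1, against 6.47% of genes, and above it in 0, against 4.5%. The median difference of the 6 genes was −0.47, against −0.016 over the 5423. In whole liver tissue, less RNA per cell and fewer cells of the type that makes it cannot be told apart.

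**Figure D1:**
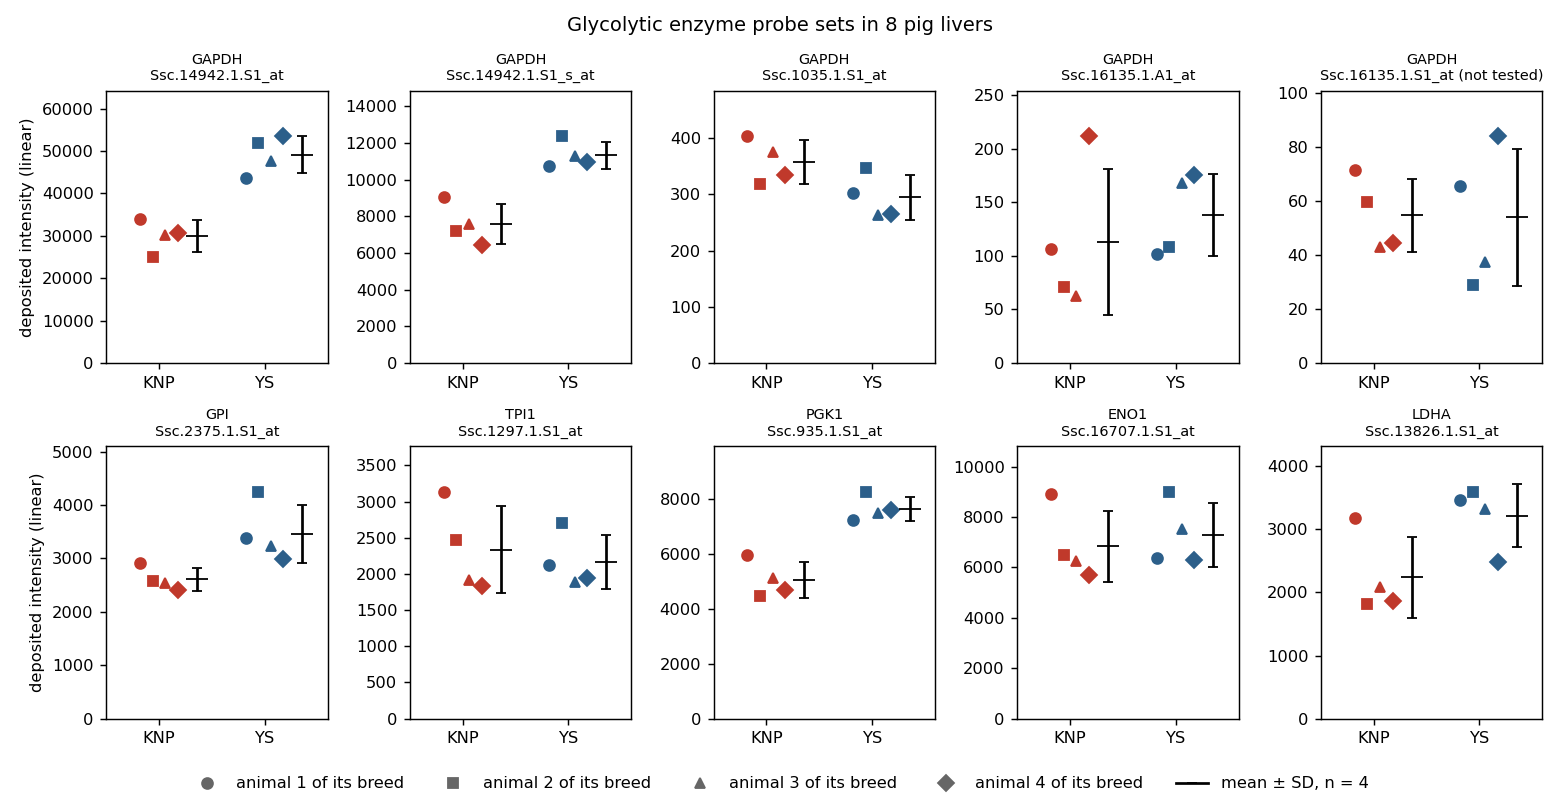
Deposited intensity (linear axis from 0) of the 10 glycolytic probe sets in each animal, KNP left and YS right, with the mean and SD of 4 animals in black. The breeds do not overlap in the first and second GAPDH probe set, GPI and PGK1, and they overlap in the others.

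GPI, which turns glucose 6-phosphate into fructose 6-phosphate at the top of the pathway, had intensities of 2910, 2570, 2535 and 2412 in KNP and of 3375, 4248, 3224 and 2988 in YS. All KNP animals were below all YS animals, by a narrow margin between the highest KNP and the lowest YS value. The means were 2607 ± 213 in KNP and 3459 ± 550 in YS (SD, n = 4 per breed), a difference of −0.40 (SE 0.15) that did not pass limma's test (adjusted p = 0.249).

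TPI1 interconverts the triose phosphates that arise when fructose bisphosphate is split. Its intensities were 3134, 2466, 1920 and 1828 in KNP, against 2122, 2704, 1888 and 1940 in YS. KNP held both the highest and the lowest value, so the ranges overlapped fully. TPI1 averaged 2337 ± 601 in KNP and 2164 ± 374 in YS (SD, n = 4 per breed), with a difference of 0.091 (SE 0.20, 95% interval −0.35 to 0.53, limma adjusted p = 0.864). Without KNP replicate 1, its highest animal, the difference was −0.060.

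The brightest GAPDH probe set (designed on the pig GAPDH sequence AF017079) had intensities of 34024, 25011, 30138 and 30636 in KNP. In YS it had 43591, 51919, 47651 and 53456. The lowest YS value was well above the highest KNP value. Means of 29952 ± 3719 in KNP and 49154 ± 4448 in YS (SD, n = 4 per breed) gave a difference of −0.72 (SE 0.13, 95% interval −0.99 to −0.44, limma adjusted p = 0.0345), so the KNP level was 39.2% lower. This probe set was brighter than 99.8% of all probe sets. The call was lost without KNP replicate 3 (adjusted p = 0.0513) and without any 1 of the YS animals (adjusted p between 0.0909 and 0.110), while the difference stayed between −0.78 and −0.63 over all 8 such fits. After quantile normalization, which gives all arrays the same distribution, the difference was −0.19 (limma adjusted p = 0.525), and limma then called 0.0694% of all probe sets higher and 0.0278% lower in KNP.

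PGK1, which makes the first ATP of the pathway in the step after GAPDH, had intensities of 5961, 4472, 5128 and 4705 in KNP, against 7231, 8269, 7482 and 7624 in YS. The breeds did not overlap, and the YS animals lay close together. Its means were 5067 ± 655 in KNP and 7651 ± 442 in YS (SD, n = 4 per breed), a difference of −0.60 (SE 0.13, 95% interval −0.89 to −0.31) just short of the threshold (limma adjusted p = 0.0678). The difference was −0.56 after quantile normalization (adjusted p = 0.103).

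ENO1, the enolase of most tissues, which makes phosphoenolpyruvate, had intensities of 8910, 6492, 6242 and 5702 in KNP. The YS animals had 6364, 8999, 7528 and 6295. The ranges overlapped almost fully, with means of 6836 ± 1421 in KNP and 7296 ± 1268 in YS (SD, n = 4 per breed). The difference was −0.099 (SE 0.18, 95% interval −0.49 to 0.29, limma adjusted p = 0.831), and its sign turned without YS replicate 2 (0.0064) and after cyclic loess normalization (0.046).

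LDHA, a main subunit of lactate dehydrogenase, had intensities of 3183, 1814, 2084 and 1871 in KNP, against 3468, 3595, 3327 and 2482 in YS. Of the KNP animals 3 lay below all YS animals, and replicate 1 lay among them. Its means were 2238 ± 641 in KNP and 3218 ± 503 in YS (SD, n = 4 per breed), a difference of −0.54 (SE 0.20) that did not pass (limma adjusted p = 0.244). LDHB, the other main subunit, showed 6507, 2061, 13689 and 7051 in KNP and 4642, 7597, 4828 and 5360 in YS. The KNP values of LDHB spread on both sides of the YS range, and the log2 ratio of LDHA to LDHB was −1.46 ± 1.09 in KNP, against −0.78 ± 0.36 in YS (SD, n = 4 per breed; two-sided exact permutation p = 0.371). This was the only one of 6 planned pairs of isozymes with both genes among the probe sets tested.

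The 5 GAPDH probe sets spanned a wide range of brightness and did not show 1 common breed difference. Mammalian genomes carry many processed copies of GAPDH, and probe sets with the suffix _s_at can bind more than 1 related transcript, so a probe set of this gene can read more than the functional transcript. The second probe set on AF017079, an _s_at one, had intensities of 9060, 7225, 7599 and 6425 in KNP, against 10734, 12373, 11271 and 10950 in YS. Here too the breeds did not overlap, with a difference of −0.59 (SE 0.14, limma adjusted p = 0.0751) that was −0.50 after quantile normalization (adjusted p = 0.130).

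The probe set designed on the transcript CN166623 had intensities of 403, 318, 376 and 334 in KNP and of 303, 348, 263 and 264 in YS. Of the 4 KNP values 2 exceeded every YS value, and the difference of 0.27 (SE 0.17) did not pass (limma adjusted p = 0.495). The probe sets designed on AF043486 were dim. The one tested had 106, 70.9, 62.8 and 212 in KNP and 101, 108, 168 and 175 in YS, a difference of −0.36 (SE 0.36, limma adjusted p = 0.685). The other, which was below the filter, had 71.7, 59.8, 43.0 and 44.4 in KNP and 65.7, 29.1, 37.4 and 84.0 in YS, below the array median on all 8 arrays.

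Whether the breed difference itself differed between probe sets was tested on their log2 ratio within each array, over all 1766 pairs formed by the brightest and another tested probe set of a gene. The ratio of the brightest GAPDH probe set to the one on CN166623 was 6.34, 6.23, 6.27 and 6.45 in KNP and 7.10, 7.16, 7.41 and 7.58 in YS. No KNP value reached the lowest YS value, and the ratio fell in KNP (difference −0.99, SE 0.16, limma adjusted p = 0.0122). Of all pairs 1.42% were called, 0.906% with the ratio lower in KNP, and in 10.6% the breeds did not overlap. These pairs were not matched for their gap in brightness. Probe sets within 0.5 log2 units of the brightest GAPDH probe set had a median difference of −0.54, and those near the one on CN166623 a median of 0.017. The call held without each animal in turn, with an adjusted p between 0.0206 and 0.0428, and was lost after quantile normalization (−0.46, adjusted p = 0.196). For the ratios to the other AF017079 probe set and to the tested one on AF043486 the differences were −0.13 and −0.36, and neither passed (limma adjusted p = 0.714 and 0.561). These became 0.30 and 0.024 after quantile normalization. The AF043486 probe set was below the array median on 3 of 4 arrays in each breed, so the size of the difference against it is not exact. With 1 animal left out that difference ran from −0.56 to −0.058, the last without KNP replicate 4.

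The array also carries 9 control probe sets for GAPDH, in 3 families that each read the 5' end, the middle and the 3' end of the transcript. They were no part of the comparison above and give another reading of the same gene. The tests on them, and on the ratios between them, were chosen after their values were seen and were adjusted together over 15 tests. All 3 families were lower in KNP without overlap at the 3' end, with differences between −0.74 and −0.49 (two-sided exact permutation p = 0.0286 each, the smallest that 4 against 4 arrays allow; adjusted p = 0.107).

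In the middle of the transcript the differences were −0.26 to −0.24 (exact permutation p between 0.114 and 0.314), and at the 5' end −0.40 to −0.29 (exact permutation p between 0.171 and 0.286). At both of these places the breeds overlapped in every family. The control at the 3' end of the family Ss_Gapdh read 5423, 4948, 4134 and 4141 in KNP and 7403, 8520, 7544 and 7475 in YS. The one in the middle read 2717, 2914, 2000 and 1687 in KNP and 2882, 2544, 2960 and 2511 in YS. At the 5' end the same family gave 2294, 1697, 1131 and 1058 in KNP, against 1741, 1699, 2295 and 1566 in YS, so that KNP replicates 3 and 4 were below all YS animals and replicate 1 was near the highest.

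The ratio of the 3' end to the middle was 2.05 ± 0.311 in KNP, against 2.86 ± 0.381 in YS, in the family Ss_Gapdh (SD, n = 4 per breed; exact permutation p = 0.0286, adjusted p = 0.107), with no overlap. In the other families it was 1.68 ± 0.243 in KNP and 2.15 ± 0.166 in YS, and 2.53 ± 0.382 in KNP, against 3.01 ± 0.315 in YS, with an exact permutation p of 0.0571 each (n = 4 per breed, adjusted p = 0.143). The ratio of the 3' end to the 5' end, the counterpart of the actin ratio, overlapped between the breeds in every family. It was 3.21 ± 0.707 in KNP and 4.33 ± 0.765 in YS in the family Ss_Gapdh, 3.04 ± 0.705 in KNP and 3.50 ± 0.407 in YS in Ssc-gapdh_at, and 1.91 ± 0.589 in KNP and 1.98 ± 0.215 in YS in Ssc-gapdh_s_at (SD, n = 4 per breed). The exact permutation p was 0.114, 0.314 and 0.771 in that order, and no ratio of either kind passed after adjustment. The spread between KNP animals was wider toward the 5' end, with a coefficient of variation of 8.16% at the 3' end and 29.4% at the 5' end in the family Ssc-gapdh_at, against 6.38% and 8.96% in YS. In Ss_Gapdh it was 13.6% at the 3' end and 37.2% at the 5' end in KNP, and in YS it was wider at the 5' end as well, with 6.80% and 17.6%.

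**Figure D2:**
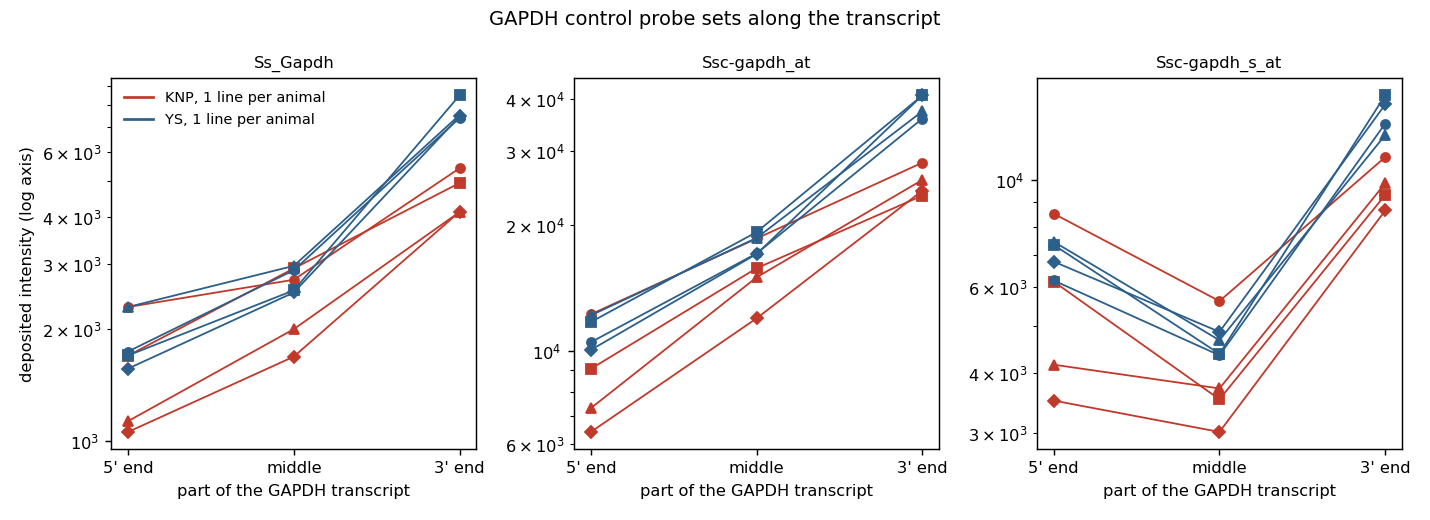
Deposited intensity (log axis) of the GAPDH control probe sets at the 5' end, middle and 3' end of the transcript, with 1 panel per family and 1 line per animal, KNP in red and YS in blue. All red lines end below all blue lines at the 3' end, while the colours mix in the middle and at the 5' end.

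Across the whole array the brightest probe sets were lower in KNP. The median difference was −0.58 over the 68 probe sets with a mean log2 between 15 and 17, of which 54.4% were called lower, and −0.071 over the 403 between 12 and 13. Each enzyme was therefore set beside probe sets of like brightness. Among the 89 tested probe sets within 0.5 log2 units of the brightest GAPDH probe set, the median difference was −0.54, against −0.72 for that probe set itself. The second GAPDH probe set, at −0.59, lay beside a median of −0.15 over 232 probe sets. The dimmer GAPDH probe sets tested, at 0.27 and −0.36, lay beside medians of 0.017 and −0.062. For PGK1 the 366 probe sets of like brightness had a median of −0.089, against its own −0.60. GPI and LDHA, at −0.40 and −0.54, lay beside medians of −0.0059 and 0.0041 over 835 and 945 probe sets. ENO1 and TPI1 were close to their surroundings, at −0.099 beside −0.089 and at 0.091 beside 0.015.

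**Figure D3:**
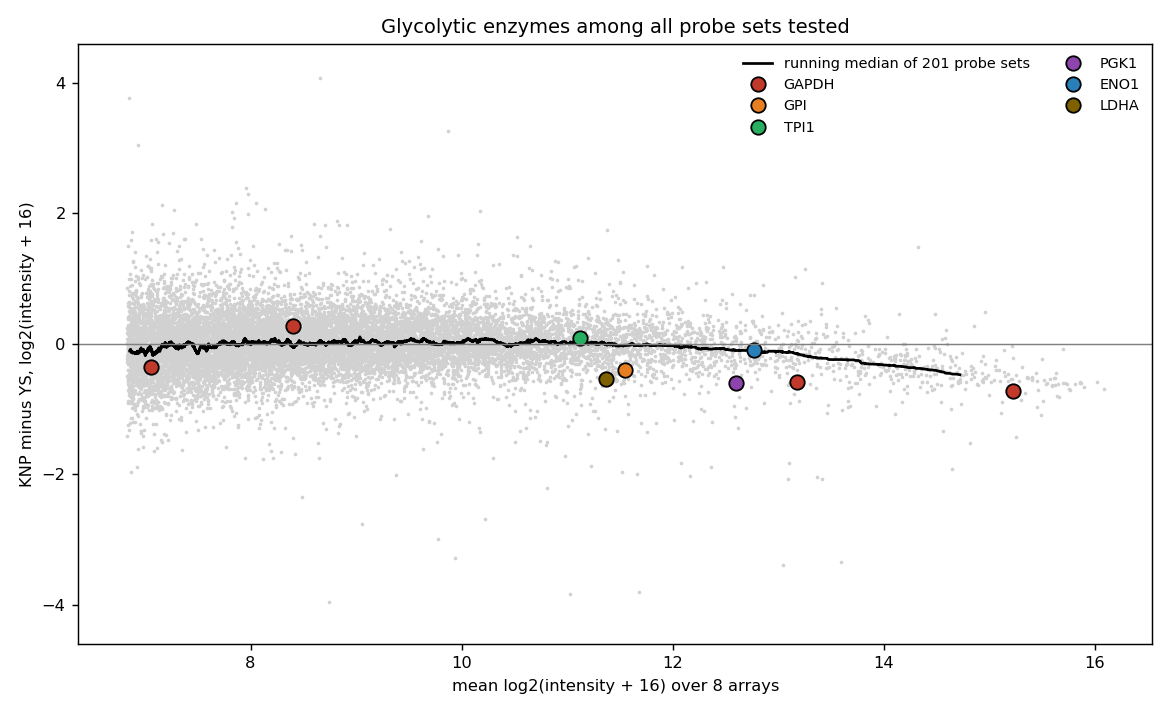
Difference KNP minus YS against the mean log2(intensity + 16) of all 14399 probe sets tested (grey), with their running median (black line) and the 9 tested glycolytic probe sets (coloured points). The line bends down toward the bright end and stops short of the brightest GAPDH point at −0.72. The second GAPDH probe set, PGK1, LDHA and GPI lie below the line at lower brightness.

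Ratios between the enzymes on the same array do not depend on how the arrays were scaled as a whole. All 15 ratios between the 6 genes were compared between the breeds with two-sided exact permutation tests, a choice made after the values were seen. GAPDH, GPI, PGK1 and LDHA were each lower in KNP relative to TPI1 and relative to ENO1, and in all 8 of these ratios the breeds did not overlap. The share of ratios without overlap among pairs of other genes was not computed, so the count of 8 has no background to be read against. The ratios were also not matched for brightness. Probe sets as bright as GAPDH had a median difference of −0.54, and those as bright as TPI1 a median of 0.015. The differences of the 8 ratios ran from 0.30 to 0.81 in size, with an adjusted p of 0.0536 each. This is the value that 8 tests of 15 give at the smallest p that the exact test allows with 4 arrays per breed, 0.0286. The log2 ratio of PGK1 to ENO1, for example, ran from −0.58 to −0.28 in KNP and from −0.12 to 0.28 in YS. That of GAPDH to TPI1 was 3.70 ± 0.365 in KNP, against 4.51 ± 0.244 in YS (SD, n = 4 per breed; exact permutation p = 0.0286, adjusted p = 0.0536).

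Within the sets GAPDH, GPI, PGK1 and LDHA on one side and ENO1 and TPI1 on the other, none of the 7 ratios was free of overlap, and the differences were 0.055 to 0.32 in size (exact permutation, adjusted p between 0.0952 and 0.743). The sets were drawn after the values were seen and follow the differences of the single genes, so the contrast between them largely restates those differences. After quantile normalization 6 of the 8 ratios between the sets did not overlap, and those of GAPDH to TPI1 and to ENO1 overlapped, at −0.26 and −0.17. The ratio of GAPDH to PGK1 was then higher in KNP without overlap, with a difference of 0.37 (exact permutation, adjusted p = 0.0612). GAPDH and TPI1 lie on the same pig chromosome with 18 protein-coding genes between them in the RefSeq table of Sscrofa11.1, and GPI, PGK1, ENO1 and LDHA do not lie on it.

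**Figure D4:**
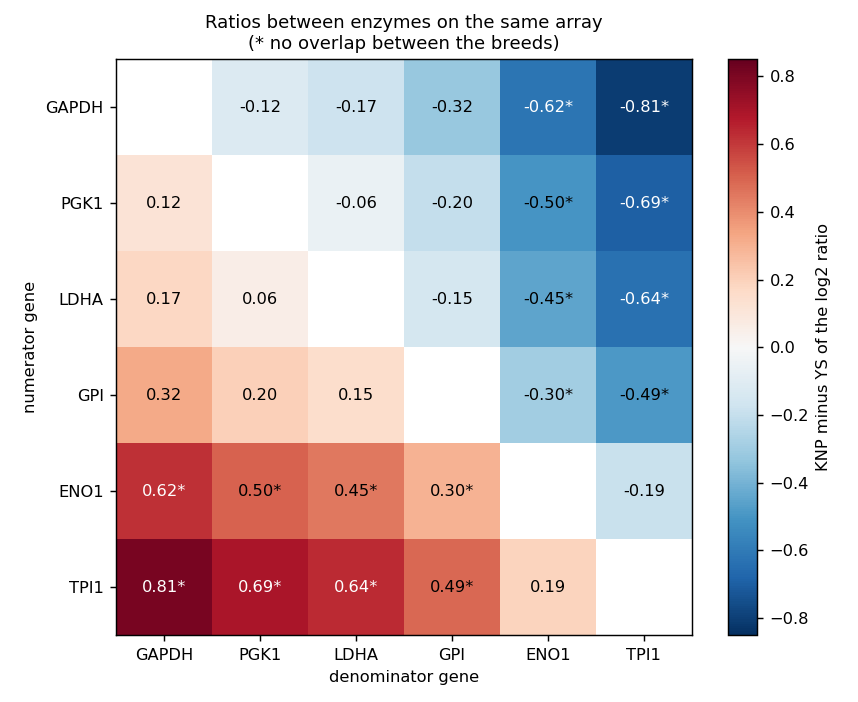
Breed difference (KNP minus YS) of the log2 ratio between each pair of enzymes on the same array, the row gene over the column gene, with an asterisk where the breeds do not overlap. Each ratio appears a second time inverted with the sign turned, and the asterisks mark the 8 ratios of GAPDH, PGK1, LDHA or GPI to ENO1 or TPI1 and no others.

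Within each breed the enzymes tended to share their highest animal but not their lowest. KNP replicate 1 was the highest KNP animal in 6 of the 6 genes, although it was the highest in only 18.1% of all probe sets tested. Among the YS animals replicate 2 was the highest in 5 of the 6, against 21.8% of all probe sets, and the exception was GAPDH, where replicate 4 was. The lowest KNP animal was replicate 2 in 3 genes and replicate 4 in 3, and the lowest YS animal was replicate 1 in 2, replicate 3 in 1 and replicate 4 in 3. The genes of an animal were read from the same array, so these are 1 observation per animal and not 6.

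Likeness to GAPDH over the 8 arrays was measured as the mean absolute difference between the log2 profiles after each was centred on its own mean. Over all probe sets tested the median of this distance to the brightest GAPDH probe set was 0.42. The 5 closest genes were ZFP91, a zinc finger ubiquitin ligase, at 0.086, PGK1 at 0.087, MX2, an interferon-induced GTPase, at 0.11, CREB3L2, a transcription factor of the endoplasmic reticulum, at 0.11, and CYB5A, cytochrome b5, at 0.11. All 5 had breed differences between −0.66 and −0.51, so likeness here includes the breed difference itself. MX2 read 112 to 266, beside array medians of 153 to 180, and ZFP91 read 189 to 396. PGK1, the enzyme of the next step, was second among all named genes on the deposited scale. The ranking was not repeated after quantile normalization, where the breed difference of GAPDH was −0.19 and those of ZFP91, PGK1, MX2, CREB3L2 and CYB5A were −0.65, −0.56, −0.61, −0.55 and −0.26. The other members were farther away, GPI at 0.18, LDHA at 0.19, ENO1 at 0.31 and TPI1 at 0.40, and 1.51%, 1.94%, 19.3% and 45.8% of probe sets were closer than each of these.

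Because GAPDH is often the scale on which other transcripts are reported, every array was also scaled to its brightest GAPDH probe set. The median of all probe sets then moved to 0.71, and limma called 57.7% of the probe sets higher in KNP and 0.146% lower, against 0.424% higher and 0.611% lower on the deposited scale. Relative to GAPDH, TPI1 rose by 0.81 (adjusted p = 0.0108), ENO1 by 0.62 (adjusted p = 0.0178) and the GAPDH probe set on CN166623 by 0.99 (adjusted p = 0.0042). Scaling added 0.72 to every difference, so these 3 are the ratios to GAPDH given above with the sign turned. In the exact permutation tests above, the ratios of GAPDH to TPI1 and to ENO1 did not pass (adjusted p = 0.0536). On the deposited scale the 3 differences were 0.091, −0.099 and 0.27, and none passed. Beside the median of 0.71 after scaling, TPI1 and the probe set on CN166623 lay above and ENO1 below. PGK1, LDHA and GPI showed 0.12, 0.17 and 0.32 on this scale and did not pass.

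**Figure D5:**
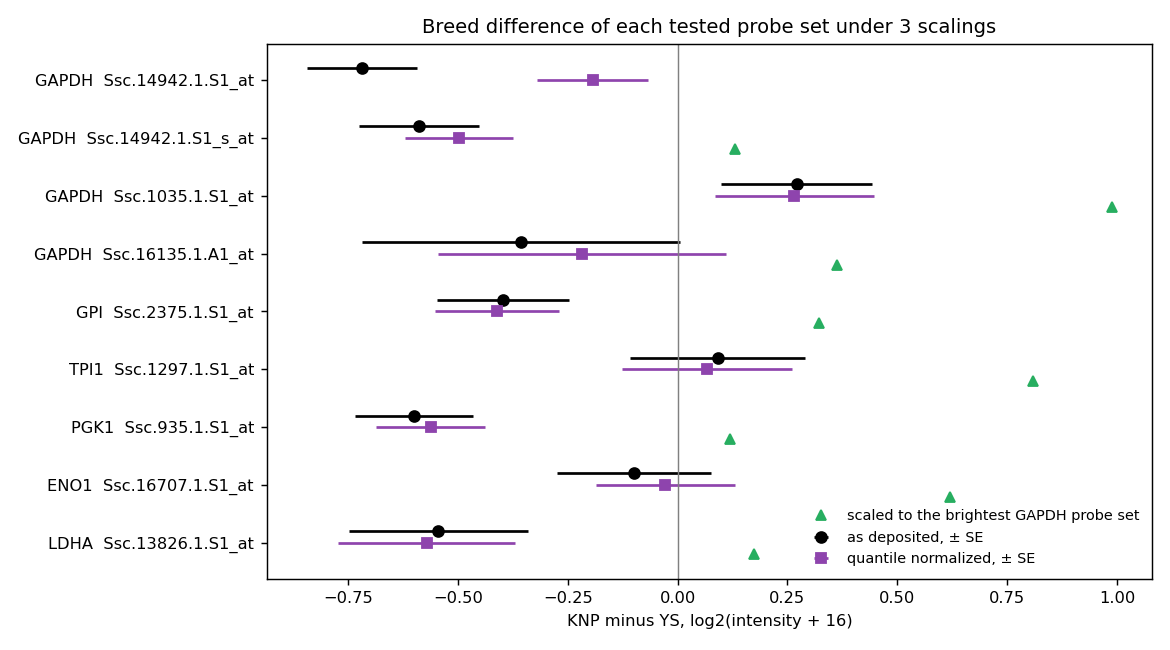
Difference KNP minus YS of the 9 tested glycolytic probe sets as deposited (black circles, ± SE), after quantile normalization (purple squares, ± SE) and scaled to the brightest GAPDH probe set (green triangles). PGK1, LDHA and GPI stay near their deposited values after quantile normalization, and every triangle lies above 0. The brightest GAPDH probe set moves from −0.72 to −0.19, and the second from −0.59 to −0.50.

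Other genes used as references were looked at in the same way. Of 9 tested, 0 rose, 1 fell and 8 did not pass with limma, where 0.867% of all genes were called lower. At an unadjusted p under 0.05, 5 were lower and 0 higher, against 8.89% of all genes lower. The median was −0.27, which was −0.055 after quantile normalization. The reference genes were not matched for brightness. ACTB, PPIA, B2M and RPLP0 had a mean log2 of 14.9, 13.9, 15.2 and 14.5. Over all probe sets tested the median difference was −0.22 at a mean log2 of 13 to 14, −0.39 at 14 to 15 and −0.58 at 15 to 17. ACTB, cytoplasmic actin, fell with 22323, 23887, 25367 and 26525 in KNP, against 36134, 33587, 44054 and 38908 in YS (difference −0.63, SE 0.12, limma adjusted p = 0.0397; −0.20 after quantile normalization). The call of ACTB held without KNP replicate 4 and was lost without any other single animal (adjusted p between 0.0576 and 0.120). PPIA, cyclophilin A, showed −0.61, B2M, the light chain of class I MHC, −0.56, and RPLP0, a ribosomal stalk protein, −0.34, with adjusted p of 0.0895, 0.130 and 0.167. Among further probe sets of B2M, 1 rose by 1.49 (limma adjusted p = 0.00857) and the others ran from −0.49 to 0.12, and the second of RPLP0 showed 0.24. RPLP0 turned to 0.019 after quantile normalization.

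In the rest of the glycolytic pathway no gene passed the test. Of 30 other genes listed, glucose carriers and the remaining enzymes and isozymes, 15 were tested. With limma 0 rose and 0 fell, where it called 1.36% of all genes in either direction. At an unadjusted p under 0.05 the count was also 0, against 886 of all 5423 genes. Their differences ran from −0.27 to 0.55 with a median of 0.13, which was 0.17 after quantile normalization. LDHD, which oxidizes D-lactate, showed 0.53 (SE 0.26, limma adjusted p = 0.375), HK1, a hexokinase of most tissues, 0.38, and PFKL, the liver form of phosphofructokinase, 0.32. BPGM, which makes the red cell effector 2,3-bisphosphoglycerate, showed −0.25. All 4 overlapped between the breeds.

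Among 12 genes of glucose production 1 rose, 0 fell and 11 did not pass, where limma called 0.498% of all genes higher and 0.867% lower, and their median was 0.10. At an unadjusted p under 0.05, SDS and PC were higher and FBP1, fructose bisphosphatase, was lower, with a difference of −0.45 (limma adjusted p = 0.212). FBP1 overlapped between the breeds, and its difference was −0.13 after quantile normalization (limma adjusted p = 0.740). SDS, which turns serine into pyruvate, rose with 3818, 883, 1776 and 1212 in KNP, against 56.1, 193, 253 and 7.19 in YS (difference 4.07, SE 0.70, limma adjusted p = 0.0336). Of the YS values 2 lay below the lowest array median, and the size of the difference depended on the pseudocount, with 4.57 for 1 and 3.40 for 64. The call was lost after quantile normalization (adjusted p = 0.0642) with a difference of 4.09. It held without KNP replicate 2 or 4 and was lost without any other single animal (adjusted p between 0.0522 and 0.106), with no overlap between the breeds. PC, pyruvate carboxylase, the entry of pyruvate into glucose production, had 3307, 6684, 9025 and 3670 in KNP and 2322, 2402, 2759 and 2461 in YS. The breeds did not overlap in PC, and the difference of 1.06 (SE 0.28) did not pass (limma adjusted p = 0.110). FBP2, the other fructose bisphosphatase listed, was lower in KNP without overlap, at −0.35 (limma adjusted p = 0.419). Of the 12 genes 2 were higher and 1 lower without overlap, against 4.5% and 6.47% of all genes. The glycogen, pentose phosphate, pyruvate entry and regulator lists had 9, 4, 9 and 11 tested genes, of which none passed with limma, while 1 gene in each was lower at an unadjusted p under 0.05, against 8.89% of all genes, and PDP2, in the pyruvate entry list, was higher.

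The genes with the smallest p in these lists were UGP2, which makes UDP-glucose for glycogen, at −0.47, TKT, transketolase, at −0.79, PDP2, a phosphatase that activates pyruvate dehydrogenase, at 0.50, and HNF4A, a nuclear receptor of hepatocytes, at −0.48, with limma adjusted p between 0.217 and 0.322. The second probe sets of UGP2 and HNF4A showed −0.21 and −0.077 (limma adjusted p = 0.711 and 0.931). The next in each list, GYG1, a primer of glycogen, at 0.34, PGD, a dehydrogenase of the pentose phosphate pathway, at 0.18, PDHA1, a subunit of pyruvate dehydrogenase, at −0.62, and EPAS1, the hypoxia factor HIF-2 alpha, at 0.23, did not pass either. Red cell markers, another possible source of glycolytic transcripts, summed to 1597 to 3600 in KNP and 2080 to 5463 in YS over 3 of 7 listed genes, and macrophage markers to 15139 to 20358 in KNP and 8666 to 18381 in YS over 6 of 10, with 0 called in either list. Their part in the glycolytic differences was not tested.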

How the data were processed

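Liver RNA of 4 KNP and 4 YS pigs was measured on the Affymetrix porcine array. Each deposited value is the intensity of 1 probe set on 1 array, and the submitters' processing notes name GCOS 1.3. The mean of each array after trimming 2% at each end was 500.1, so each array had been brought to 1 common level before deposition. The signal algorithm is not given in the sources used here. Symbols came from GEO's platform annotation, and the gene IDs of all 10 glycolytic probe sets matched the same symbol in the RefSeq table. From the 24123 probe sets 124 controls were dropped, the lower 40% by mean log2(intensity + 16) were left out, and 14399 were fitted with limma 3.58.1 in R 4.3.3 (lmFit, eBayes with an intensity trend, breed as the only term). A gene is represented by its brightest tested probe set unless its probe sets are named. The members and lists were chosen with earlier results of these data known. The naming rule took genes past the threshold and otherwise 2 to 4 with the smallest p per list. The number used, 4 for the other glycolytic and the reference genes and 2 elsewhere, was set after the values were seen, and PC, PPIA, B2M and RPLP0 were named beside a called gene of their list. For arrays the number of animals, 4 per breed, limits the precision. Alternatives were a pseudocount of 1 or 64, quantile, median, GAPDH and cyclic loess scaling, no filter or 60%, no trend, array weights, a replicate block, a threshold of 0.01, the mean of a gene's probe sets, and leaving out each animal. Quantile normalization and leaving out each animal were applied to the ratios between enzymes after seeing the data.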

Additional observations from a re-analysis of the deposited data

Results flagged for a closer look

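Of 82 groups of 4 animals checked for a single animal far from the others, 4 were marked, about as many as the 1 in 20 that chance gives. YS replicate 2 stood apart in the 3' control of the family Ss_Gapdh, at 8520 against 7403 to 7544 in the other YS animals (gap over range 0.874). KNP replicate 4 stood apart in HNF4A, at 4599 against 7888 to 8091 in the other KNP animals (gap over range 0.942). In PDP2 KNP replicate 3 was at 296 against 445 to 475 (gap over range 0.832), and in RPLP0 YS replicate 3 was at 27461 against 24567 to 24752 (gap over range 0.936). None of the 10 glycolytic probe sets was marked in either breed.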

How the results depend on the processing

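The count of glycolytic probe sets past the threshold was 1 (the brightest of GAPDH) and also 1 with a pseudocount of 1 or 64, the lower 60% left out or array weights. It was 0 after quantile normalization, median centring (GAPDH −0.64, adjusted p = 0.0566) or cyclic loess, with no filter, no intensity trend, a threshold of 0.01, averaging a gene's probe sets (GAPDH −0.35, adjusted p = 0.276) or a replicate block, and 3 after scaling to GAPDH. Leaving out 1 animal gave 0 to 1. The 2 calls in the wider lists became 0 after quantile or cyclic loess normalization, with no trend, a threshold of 0.01 or the replicate block, 1 with no filter, 38 after scaling to GAPDH, and 0 to 2 with 1 animal left out. The difference of SDS was 4.09 after quantile and 4.05 after cyclic loess normalization, with an adjusted p of 0.0642 and 0.0640. The 1 call between GAPDH probe sets became 0 after quantile normalization and was 1 with each animal left out. The difference of the LDHA to LDHB ratio ran from −1.10 to −0.25 with 1 animal left out. The same replicate number in both breeds names different animals, and the correlations of their deviations, −0.020 to 0.051, give no sign of pairing. The replicate block cut the calls over all probe sets to 6 higher and 2 lower. Quantile normalization left 10 higher and 4 lower.

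Scaling to GAPDH turned the sign, by its construction, of GPI (0.32), PGK1 (0.12), ENO1 (0.62), LDHA (0.17), the second and the dim GAPDH probe set (0.13 and 0.36), BPGM (0.47), UGP2 (0.24), PDHA1 (0.098), HNF4A (0.24), ACTB (0.085), PPIA (0.11), B2M (0.15) and RPLP0 (0.38). Quantile normalization turned RPLP0 (0.019), the ratios of the brightest GAPDH probe set to the second (0.30) and to the tested one on AF043486 (0.024), and the ratios of GAPDH to GPI (0.22), to PGK1 (0.37) and to LDHA (0.38) and of PGK1 to LDHA (0.0084), the last also without KNP replicate 1 or YS replicate 4 (range with 1 animal left out −0.12 to 0.063). ENO1 turned with cyclic loess (0.046) and without YS replicate 2 (range −0.23 to 0.0064), and TPI1 without KNP replicate 1 (range −0.060 to 0.20). The cause was not tested. Precision is limited by 4 arrays per breed.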
